A study of Mus musculus with 8 samples.

Results

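WFS1 ChIP-seq peaks around the genes of the RUNX transcription factors, Runx1, Runx2 and Runx3, and of their shared partner Cbfb were examined in C2C12 cells, a mouse myoblast line that fuses into myotubes when serum is withdrawn. Every WFS1 peak within 200 kb of either end of one of the 4 genes was taken, which gave 87 of 22292 peaks after the peak lists of 2 libraries had been joined. The genes were chosen by the WFS1 peaks near them, so the number of peaks near them and their distances are a description and not a finding. Both libraries came from proliferating wildtype C2C12 cells, grown with 15% fetal calf serum, in which endogenous WFS1 was precipitated with 1 antibody after crosslinking with DSG and formaldehyde. Chromatin of the first library was sheared for 30 sonication cycles, and that of the second was a part of the same immunoprecipitation sheared for 6 further cycles. The lists are therefore not replicates, and no test between them was possible. The other 6 libraries, which are the inputs and the samples of WFS1 knockout cells with FlagTag WFS1, were not analysed here.

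A peak is a stretch of the genome in which the authors' peak caller found more reads than its background model allowed. The lists give its start and end, but no height, score or read count, and the depth of the libraries is unknown. They hold no expression values either, so the myoblast label could not be checked against marker genes, and nothing here tells whether the 4 genes were transcribed. The 30-cycle list held 18283 peaks with a median width of 387 bp, and the 36-cycle list held 12674 with a median of 327 bp. After joining peaks that overlap by at least 1 bp, 35.4% of all combined peaks were found in both lists, 45.5% in the 30-cycle list alone and 19.1% in the 36-cycle list alone. Shares are given with 95% Wilson intervals, which account for the number of peaks counted and for no other error.

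WFS1, or Wolframin, is a membrane protein of the endoplasmic reticulum, which is continuous with the nuclear membranes. RUNX proteins bind DNA through the Runt domain at a short core, TGTGGT or TGCGGT, and CBFB, which does not touch DNA itself, joins the Runt domain and strengthens its binding. RUNX1 is known for the formation of blood stem cells, RUNX2 for the formation of bone and RUNX3 for the development of T cells and sensory neurons. Each Runx gene is read from a distal promoter, P1, and a proximal promoter, P2, and the resulting proteins differ at their N-terminus, while for Cbfb a single start site was used. In myoblasts, RUNX1 is known to act during regeneration of muscle, and C2C12 cells turn toward the bone lineage with RUNX2 when they are given BMP2.

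The sequences below are those in or beside the WFS1 peaks on which the description of each gene rests, written 5′ to 3′ on the strand of the gene from GRCm38. Capitals mark RUNX cores, AP-1 sites and the E-box CAGCTG, which is its own reverse complement. A RUNX core was taken as TGTGGT, which reads ACCACA on the opposite strand, or as TGCGGT, which reads ACCGCA there. An AP-1 site was taken as TGACTCA, which reads TGAGTCA on the opposite strand. The last letters of ACCGCA can be the first of CAGCTG, so a core and an E-box can share bases. In the central 200 bp of all combined peaks, a RUNX core was found in 28.4%, an AP-1 site in 17.9% and CAGCTG in 18%. Of 32851 RefSeq promoters of 300 bases, the shares were 22.4%, 5.2% and 16.3%. A match describes letters and does not show that a factor was bound there.

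The first set shows what the P1 promoters of the 3 Runx genes have in common, a pair of ACCACA separated by 2 bases. Relative to P1 it lies at 103 to 116 in Runx1, 193 to 206 in Runx2 and -141 to -128 in Runx3, where negative is upstream. The printed bases are annotated as untranslated exon sequence in Runx1 and Runx2, but not in Runx3. The stretches are chr16:92826025-92826054 for Runx1, chr17:44814583-44814612 for Runx2 and chr4:135120503-135120532 for Runx3.
Runx1 P1 pair: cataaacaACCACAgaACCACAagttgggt
Runx2 P1 pair: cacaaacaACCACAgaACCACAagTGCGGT
Runx3 P1 pair: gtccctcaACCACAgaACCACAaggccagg
ACCACANNACCACA, on either strand, was found in 7 of the RefSeq promoters (0.0213%), and 3 of them were the P1 promoters of Runx1, Runx2 and Runx3. The other holders were Gm12236, Gm15462, Olfr24 and Gm16225, and the promoter of Gm16225 holds the same letters as that of Runx3 read on the opposite strand. The pattern was chosen after the sequences had been seen. The Runx1 pair lay in a peak found in both lists, the Runx2 pair lay in a peak called after 30 cycles only, and no peak covered the Runx3 pair. Whole combined peaks held the pattern in 29 of 22292 (0.13%).

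The second set shows the letters under the peaks at the start sites of Runx1 and Runx2, upstream of P1 in both and upstream of P2 in Runx1. They are chr16:92826150-92826449, chr17:44814798-44815097 and chr16:92697447-92697746.
Runx1 upstream of P1: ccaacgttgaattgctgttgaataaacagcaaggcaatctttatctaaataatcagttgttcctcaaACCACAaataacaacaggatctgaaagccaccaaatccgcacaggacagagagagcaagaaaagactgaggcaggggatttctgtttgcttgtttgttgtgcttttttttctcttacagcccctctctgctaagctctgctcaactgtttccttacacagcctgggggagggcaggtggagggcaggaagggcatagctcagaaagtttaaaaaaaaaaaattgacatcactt
Runx2 upstream of P1: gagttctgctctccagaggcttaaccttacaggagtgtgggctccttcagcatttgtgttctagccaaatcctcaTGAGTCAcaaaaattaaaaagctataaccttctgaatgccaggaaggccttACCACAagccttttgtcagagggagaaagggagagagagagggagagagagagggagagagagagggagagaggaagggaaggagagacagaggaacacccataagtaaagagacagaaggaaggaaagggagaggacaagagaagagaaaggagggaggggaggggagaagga
Runx1 upstream of P2: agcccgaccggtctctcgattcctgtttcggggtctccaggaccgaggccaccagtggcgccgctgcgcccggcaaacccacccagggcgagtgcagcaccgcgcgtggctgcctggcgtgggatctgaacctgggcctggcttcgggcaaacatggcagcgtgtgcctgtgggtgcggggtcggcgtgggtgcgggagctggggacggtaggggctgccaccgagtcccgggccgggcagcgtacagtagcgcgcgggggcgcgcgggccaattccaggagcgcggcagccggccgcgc
The stretch upstream of P1 of Runx1 was 43.0% G and C with 2 CpG, and that upstream of P2 was 73.7% with 36 CpG. The Runx2 stretch is in large part a run of G and A.

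The third set shows peaks away from the start sites, namely the middle of the widest Runx1 peak at chr16:92620953-92621252 and a repeat within a wide Runx1 peak near P1 at chr16:92823998-92824117.
Runx1 widest peak: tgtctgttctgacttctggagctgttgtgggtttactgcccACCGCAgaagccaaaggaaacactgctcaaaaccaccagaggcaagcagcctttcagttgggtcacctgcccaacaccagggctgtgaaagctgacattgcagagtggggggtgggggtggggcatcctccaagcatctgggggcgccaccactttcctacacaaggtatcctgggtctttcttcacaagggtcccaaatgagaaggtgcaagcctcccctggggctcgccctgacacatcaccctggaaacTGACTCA
Runx1 repeat: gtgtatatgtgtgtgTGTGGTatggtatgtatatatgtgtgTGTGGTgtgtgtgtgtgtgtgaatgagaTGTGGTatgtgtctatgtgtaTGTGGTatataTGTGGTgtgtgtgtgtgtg
The widest Runx1 peak held TGACTCA. The repeat showed TGTGGT 5 times within 120 bases.

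The last set shows the Runx3 peak nearest to P2 at chr4:135146851-135147150, the widest Runx3 peak at chr4:135095673-135095972 and the whole Cbfb promoter peak at chr8:105170275-105170469.
Runx3 peak before P2: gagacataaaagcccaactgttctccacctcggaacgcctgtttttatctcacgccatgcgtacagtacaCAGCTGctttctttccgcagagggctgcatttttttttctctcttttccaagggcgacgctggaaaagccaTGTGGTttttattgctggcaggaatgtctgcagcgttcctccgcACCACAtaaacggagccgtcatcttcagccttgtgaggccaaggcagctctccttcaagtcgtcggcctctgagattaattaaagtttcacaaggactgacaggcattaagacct
Runx3 widest peak: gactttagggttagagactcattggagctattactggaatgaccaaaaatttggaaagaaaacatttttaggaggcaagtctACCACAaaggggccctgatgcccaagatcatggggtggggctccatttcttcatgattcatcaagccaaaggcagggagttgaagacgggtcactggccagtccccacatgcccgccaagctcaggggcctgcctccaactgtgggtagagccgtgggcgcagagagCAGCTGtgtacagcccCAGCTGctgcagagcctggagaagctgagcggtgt
Cbfb promoter peak: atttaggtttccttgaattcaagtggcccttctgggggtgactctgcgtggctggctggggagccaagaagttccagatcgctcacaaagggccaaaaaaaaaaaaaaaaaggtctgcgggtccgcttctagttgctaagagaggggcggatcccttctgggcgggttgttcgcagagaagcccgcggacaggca
Both Runx3 stretches held a RUNX core together with CAGCTG. The Cbfb stretch held neither a RUNX core, an AP-1 site nor CAGCTG.

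Runx1, Runx2 and Runx3 had 28, 25 and 29 combined peaks within 200 kb, and Cbfb had 5. Among 21938 protein-coding genes, 83.8% had at least 1 such peak, and the median gene had 5. At least as many as Runx1 were found for 0.615% of genes, as many as Runx2 for 1.03%, as many as Runx3 for 0.533% and as many as Cbfb for 51.4%. Since the window includes the gene, long genes have larger windows. Per Mb of window, Runx1 had 44.8 peaks, Runx2 34.8, Runx3 63.4 and Cbfb 11.2, against a median of 10.1 over all genes. The 3 Runx genes thus lay high and Cbfb lay near the middle on either scale, and at least their density was found for 2.88%, 6.68%, 0.565% and 48.5% of genes in the same order.

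**Figure D1:**
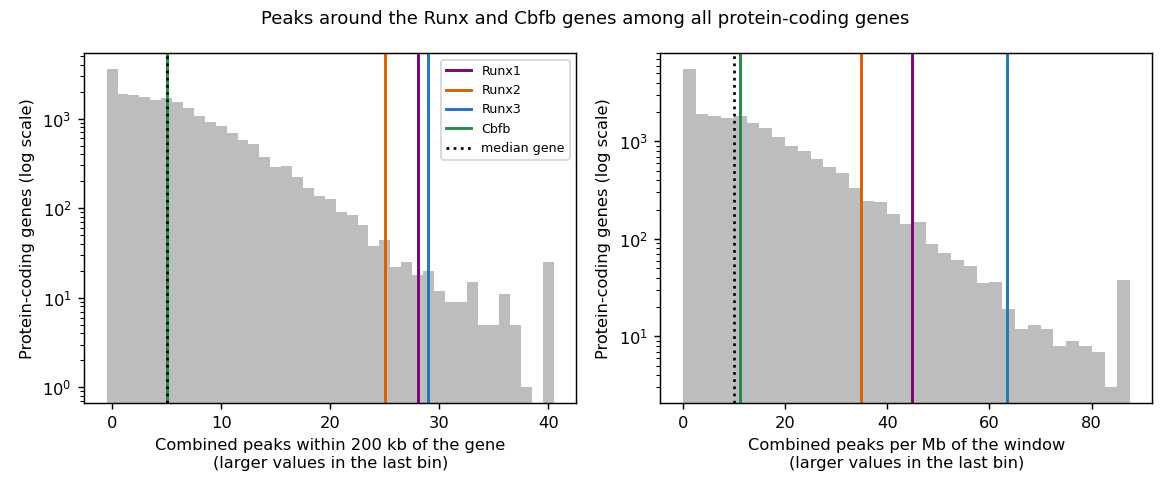
Number of protein-coding genes (log scale) by combined WFS1 peaks within 200 kb (left) and by peaks per Mb of that window (right), with the 4 genes as coloured lines and the median gene as a dotted line. Runx1, Runx2 and Runx3 stand at 28, 25 and 29 peaks in the upper tail, and Cbfb stands at the median of 5.

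The outermost peak taken for Runx1 lay 198.958 kb from the gene, and the next one out lay at 201.521 kb. For Runx2 these distances were 79.83 and 204.908 kb, for Runx3 198.009 and 343.881 kb, and for Cbfb 154.835 and 252.769 kb. The window of Runx1 thus ended between peaks of 322 and 466 bp that lie close together, both called after 30 cycles only, whereas the other windows ended in wider gaps.

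Where the peaks lay differed between the genes. Of the Runx1 peaks, 16 lay inside the gene, 9 upstream and 3 downstream. Of the Runx2 peaks, 24 lay inside, none upstream and 1 downstream. Runx3 had 2 peaks inside, 15 upstream and 12 downstream, and Cbfb had none inside, 1 upstream and 4 downstream. At least 16 peaks inside the gene were found for 0.105% of protein-coding genes, at least 24 for 0.0228%, which is 5 genes, and at least 2 for 10.5%. The genes span 224.684 kb for Runx1, 318.811 kb for Runx2, 57.339 kb for Runx3 and 47.316 kb for Cbfb, so the pair with most peaks inside is also the pair of long genes. Of the 24 peaks inside Runx2, 13 lay within its coding transcripts, which span 210.797 kb, and 11 lay beyond them. The rank of Runx2 by peaks inside thus rests on the annotated end of the gene.

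**Figure D2:**
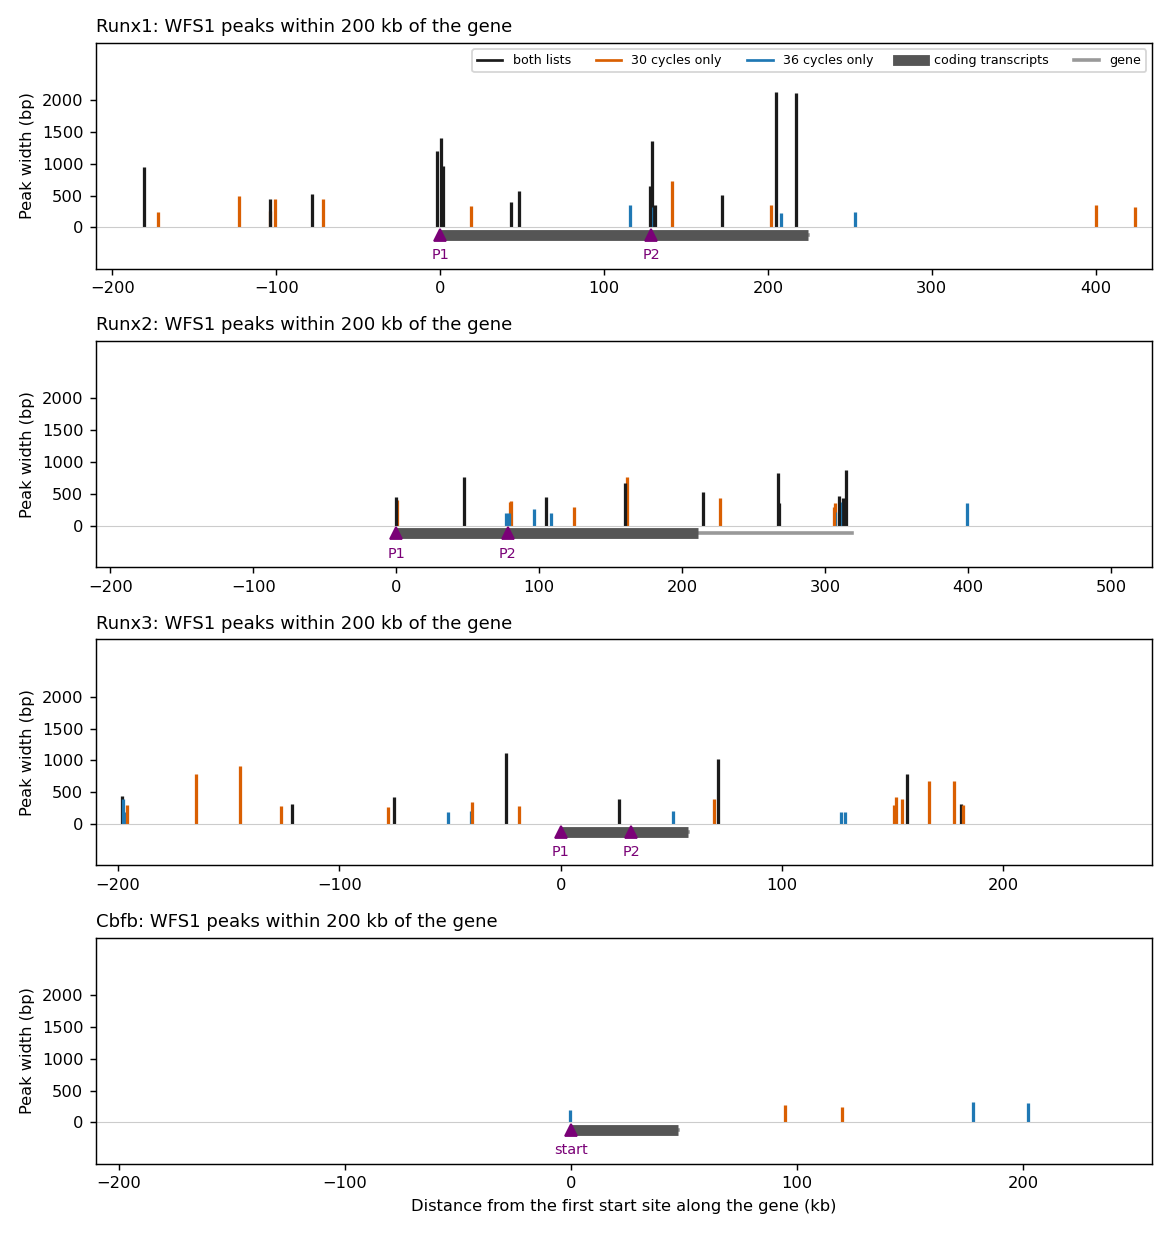
Each combined peak within 200 kb as a vertical bar at its distance from the first start site (kb, along the gene), with its width in bp as height and its list as colour, above the span of the gene and its start sites. Runx1 and Runx2 peaks lie largely inside the gene, whereas 27 of the 29 Runx3 peaks lie outside it. Of the 24 Runx2 peaks inside, 11 lie beyond the coding transcripts.

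The nearest start site of any protein-coding transcript was one of the gene's own for 25 of 28 Runx1 peaks and 23 of 25 Runx2 peaks. For Runx3 this held for 11 of 29 peaks, and the start sites nearest to the others were those of Clic4 (8 peaks), Rsrp1 (4), Syf2 (4) and Srrm1 (2). For Cbfb it held for 1 of 5. Over the 4 genes, 60 of 87 peaks were nearest to the gene in whose window they were counted, and the high count of Runx3 is therefore in part a count of peaks at its neighbours.

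Peaks lay at or near a start site of Runx1, Runx2 and Cbfb, but not of Runx3. A WFS1 peak covered P1 of Runx1, P2 of Runx1 and P1 of Runx2, and the nearest peak lay 308 bp from the outermost P2 start of Runx2, 0.205 kb from the Cbfb start, 5300 bp from P2 of Runx3 and 18710 bp from P1 of Runx3. Among 21853 genes with an annotated coding start, 5.51% had a start site inside a combined peak, 15.3% had a peak within 1 kb of one, and the median distance was 38602 bp. Within 1 kb of a coding start of their gene lay 5 Runx1 peaks, 5 Runx2 peaks, no Runx3 peak and 1 Cbfb peak.

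**Figure D3:**
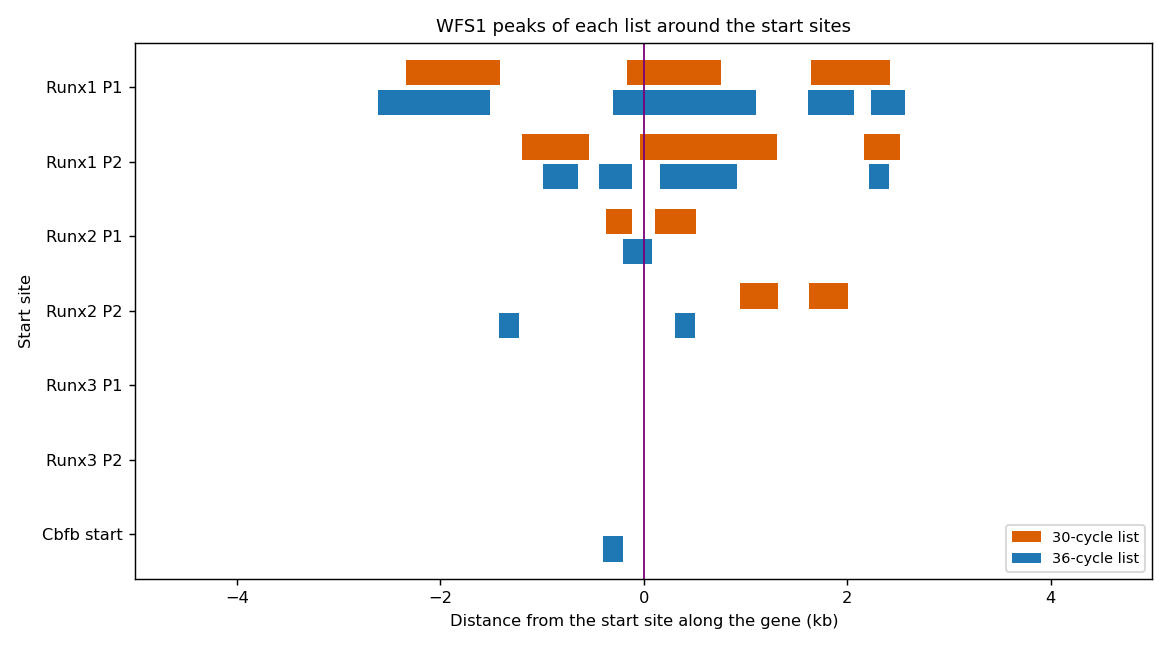
Peaks of the 30-cycle list (orange) and of the 36-cycle list (blue) within 5 kb of each start site, placed by their distance in kb along the gene, with the start site at 0. Both lists have peaks at P1 and P2 of Runx1 and at P1 of Runx2, the lists do not overlap at P2 of Runx2, the 36-cycle list alone has one at Cbfb, and none lies within 5 kb at Runx3.

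Start sites with and without a near peak overlapped in base composition. In the 1 kb around them, P1 of Runx1 and P1 of Runx2 had 46.9% and 45.2% G and C, and their ratio of observed to expected CpG was 0.310 and 0.164. P2 of Runx1 and P2 of Runx2 had 61.9% and 54.7% with ratios of 0.865 and 0.909. Of the start sites without a near peak, P1 of Runx3 lay within these values, with 52.1% and a ratio of 0.361, and P2 of Runx3 lay above them, with 74.0% and 0.949. Cbfb, with 66.6% and a ratio of 0.928, had a CpG-rich start site like the P2 promoters.

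Runx1 (ENSMUSG00000022952, chr16:92601466-92826149, minus strand) had the widest peaks of the 4 genes and the highest share found in both lists. Its P1 at position 92826149 and P2 at 92697328 are 128.821 kb apart. The peak over P1, chr16:92825041-92826449, was 1409 bp wide, of which the 30-cycle list held 928 bp and the 36-cycle list held all 1409 bp. It covers the upstream stretch printed above, the pair of ACCACA, untranslated exon sequence and a part of the coding exon. The peak was flanked on either side by another one found in both lists. Upstream, chr16:92827564-92828764 was 1201 bp wide and ended 1.415 kb from P1, with 924 bp in the 30-cycle list and 1109 bp in the 36-cycle list. Downstream in the intron, chr16:92823579-92824535 was 957 bp wide and began 1.614 kb past P1. These 3 peaks lay within 5.186 kb and had a summed width of 3567 bp.

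The downstream flanking peak holds the repeat printed above, and 54.4% of its bases are masked as repeats in the reference. It held 17 RUNX cores over its whole width and 8 in its central 200 bp. Over whole peaks, at least 17 cores were found in 0.0807% of all combined peaks, and at least 8 in 0.462%. No such share was computed for the central 200 bp. The cores are part of runs of GT, and how well reads were placed in this repeat was not tested.

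At P2, Runx1 had 4 peaks within 3.709 kb, and 3 of them were found in both lists. The peak over P2, chr16:92696017-92697366, was 1350 bp wide in the 30-cycle list, where it covered the start site. In the 36-cycle list it was 757 bp wide and did not reach P2, and the nearest peak of that list, chr16:92697447-92697764, lay 119 bp upstream and was called after 36 cycles only. That peak is the one whose CpG-rich sequence is printed above, and 73.9% of its bases are G or C. The remaining ones were chr16:92697869-92698522, 654 bp wide and 0.541 kb upstream of P2, and chr16:92694814-92695166, 353 bp wide and 2.162 kb past it, both in the intron. Thus both Runx1 promoters carried a cluster of peaks in either list, with a shift of the edges at P2.

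The widest Runx1 peaks lay in the introns downstream of P2, far from either promoter. The widest, chr16:92620042-92622162, was 2121 bp wide in the 30-cycle list and 1646 bp in the 36-cycle list, 75.2 kb past P2, where the noncoding gene Gm26626 is also annotated. Of all 22292 combined peaks, 68 were at least as wide. The next, chr16:92608209-92610320, was 2112 bp wide after joining, from 2 peaks of 633 and 449 bp after 30 cycles and 3 peaks of 210, 1032 and 359 bp after 36 cycles. Its width is thus that of a row of neighbouring peaks, whereas the former was a single peak in each list.

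Between P1 and P2 of Runx1 lay 7 peaks that covered neither start site, and 4 of them were found in both lists. Apart from those at the promoters and the pair of widest ones, the peaks found in both lists inside Runx1 were chr16:92653851-92654356 (506 bp), chr16:92777998-92778563 (566 bp) and chr16:92782390-92782780 (391 bp), all in introns. Upstream of the gene they were chr16:92903901-92904421 (521 bp), chr16:92929948-92930400 (453 bp) and chr16:93006294-93007246 (953 bp), of which the last lay 180 kb from P1. Both lists therefore held Runx1 peaks from far upstream to the end of the gene, and none of the 3 peaks downstream of the gene was in both.

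Runx2 (ENSMUSG00000039153, chr17:44495987-44814797, minus strand) had all but 1 of its peaks inside the gene. Its P1 at 44814797 and P2 at 44736648 are 78.149 kb apart. The peak over P1, chr17:44814712-44815169, was 458 bp wide and counted as found in both lists, but the lists placed it differently. The 30-cycle list held the upstream 259 bp, which did not reach P1, and the 36-cycle list held 291 bp that covered P1. Of its bases 54.4% are masked as repeats, seen above as the run of G and A, and Supt3, a gene for a subunit of a coactivator complex, overlaps there as well. A second peak, chr17:44814283-44814685, 403 bp wide and found in the 30-cycle list alone, lay 112 bp past P1 at 44814797. It held the pair of ACCACA and 4 RUNX cores in all. It also covers position 44814581, where another transcript of the P1 class is annotated to start.

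P2 of Runx2 had 4 peaks within 5 kb, and none was found in both lists. After 30 cycles they were chr17:44734643-44735028 (386 bp) and chr17:44735329-44735703 (375 bp), both over coding exon sequence. The latter covers position 44735634, where a shorter transcript of the P2 class is annotated to start. After 36 cycles they were chr17:44736146-44736340, 308 bp past P2, and chr17:44737875-44738069, 1.227 kb upstream, both 195 bp wide. That width is the smallest in the 36-cycle list, shared by 7.63% of its peaks. At this promoter both lists thus had peaks within 3.427 kb but shared none.

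A group of 7 peaks lay at the far end of Runx2, within chr17:44499956-44508600. Of 16222 groups of combined peaks with gaps of at most 5 kb, lone peaks included, 1250 had at least 3 peaks. At least 7 were found in 63 groups, this group included. It lies in an intron of the annotated gene, but beyond the coding transcripts, which end at 44604001, and the stretch past that position belongs to a transcript annotated for nonsense-mediated decay. Of this group 3 peaks were found in both lists, among them chr17:44499956-44500831 (876 bp) and chr17:44501846-44502283 (438 bp). The former is the widest Runx2 peak, with 876 bp in the 30-cycle list and 383 bp in the 36-cycle list. Beyond the coding transcripts lay 11 Runx2 peaks in all, 214 to 314 kb from P1, and 6 of them were found in both lists. Within the coding transcripts lay 13, of which 4 were in both.

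The other Runx2 peaks found in both lists lay in introns. Beyond the coding transcripts they were chr17:44546821-44547171 (351 bp), chr17:44547568-44548392 (825 bp) and chr17:44599868-44600403 (536 bp). Within them they were chr17:44654295-44654968 (674 bp), chr17:44709915-44710370 (456 bp), which overlaps the antisense gene Runx2os2, and chr17:44767213-44767980 (768 bp), which was nearer to a start site of Supt3. Between P1 at 44814797 and P2 at 44736648 lay 3 Runx2 peaks that covered neither position, and 1 of them was in both lists. The peak over the further P1-class start at 44814581 is among the 3.

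Runx3 (ENSMUSG00000070691, chr4:135120652-135177990, plus strand) had 29 combined peaks around it, but none within 5 kb of either promoter. The 30-cycle list held 22 Runx3 peaks, beside 25 for Runx1 and 19 for Runx2. In the 36-cycle list there were 15, beside 21 for Runx1 and 17 for Runx2, so Runx3 had the most peaks in the combined set but in neither list alone. Its P1 at 135120652 and P2 at 135152496 are 31.844 kb apart. The nearest peak to P1 was chr4:135101663-135101942, 280 bp wide, called after 30 cycles only and 18.7 kb upstream. Between the promoters lay 1 peak, chr4:135146805-135147196, found in both lists in the intron 5.300 kb before P2. It was 392 bp wide, with 330 bp in the 30-cycle list and 195 bp in the 36-cycle list, and held the RUNX cores and the CAGCTG printed above. The second peak inside the gene, chr4:135171478-135171681, was 204 bp wide and called after 36 cycles only.

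The wide Runx3 peaks stood on either side of the gene. Upstream, chr4:135095262-135096382 was 1121 bp wide and 24.3 kb from P1, with 1121 bp in the 30-cycle list and 684 bp in the 36-cycle list. Downstream, chr4:135191143-135192166 was 1024 bp wide, with 894 and 776 bp. The third in width, chr4:134975399-134976310, was 912 bp wide, called after 30 cycles only, and held 8 RUNX cores over its whole width. Its central 200 bp held 1 core, and 34.1% of its bases are masked as repeats. Other Runx3 peaks found in both lists were chr4:134998932-134999248 (317 bp) and chr4:135045124-135045540 (417 bp) upstream, and chr4:135301175-135301488 (314 bp) downstream. A further pair lay at neighbours, namely chr4:134922211-134922643 (433 bp), 0.949 kb from a start site of Rsrp1, and chr4:135276510-135277290 (781 bp), 3.70 kb from one of Clic4, a chloride intracellular channel gene.

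Cbfb (ENSMUSG00000031885, chr8:105170674-105217989, plus strand) had few, narrow peaks, and none was in both lists. The peak near its start, chr8:105170275-105170469, lay 0.205 kb upstream and was 195 bp wide, the smallest width of the 36-cycle list in which alone it was called. In the 30-cycle list the nearest peak lay 94.8 kb from the start at 105170674. The remaining peaks were nearest to the start sites of Fbxl8, 4931428F04Rik, Slc9a5 and Plekhg4, at distances of 0.861, 0.833, 0.112 and 0.139 kb, and were 271, 242, 314 and 312 bp wide. All 5 peaks were narrower than the median combined peak of 376 bp.

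The share of peaks found in both lists was highest for Runx1, followed by Runx2, Runx3 and Cbfb, and the intervals of neighbours in this order overlapped. It was 50% for Runx1 (14 of 28, 32.6 to 67.4%), 40.0% for Runx2 (10 of 25, 23.4 to 59.3%), 27.6% for Runx3 (8 of 29, 14.7 to 45.7%) and 0 of 5 for Cbfb, which allows up to 43.4%. Together 32 of 87 peaks were in both lists (36.8%, 27.4 to 47.3%), beside 35.4% of all combined peaks. Every interval includes that share. With an overlap of at least 50% of each peak, 12 Runx1, 5 Runx2, 6 Runx3 and 0 Cbfb peaks were counted in both lists, so the order of Runx2 and Runx3 rests on the overlap asked for. By the same rule the share of all combined peaks in both lists fell from 35.4% to 24.3%. The 30-cycle list alone held 10 Runx1, 8 Runx2, 14 Runx3 and 2 Cbfb peaks, and the 36-cycle list alone held 4, 7, 7 and 3.

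Widths varied most at Runx1. The median was 453 bp for Runx1 (232 to 2121 bp), 386 bp for Runx2 (195 to 876 bp), 340 bp for Runx3 (195 to 1121 bp) and 271 bp for Cbfb (195 to 314 bp), beside 376 bp for all combined peaks. The mean was 667 ± 525 bp (SD, n = 28), 437 ± 200 (n = 25), 438 ± 261 (n = 29) and 267 ± 50.1 (n = 5). Of the Runx1 peaks, 5 were at least 1200 bp wide, and all 5 were found in both lists, whereas no peak of the other genes was that wide. Of all combined peaks 3.49% were. Runx1 peaks of 2112 and 1201 bp reached 1200 bp only by joining, their widest parts being 1032 and 1109 bp. The Runx1 peaks found in both lists had a median of 803.5 bp, and those of 30 or 36 cycles only had 349 and 280.5 bp. Runx2 showed the same order with 502.5, 380.5 and 213 bp, as did Runx3 with 425, 364.5 and 195 bp. Joining the lists can only widen a peak that is in both, so part of this order is set by the joining.

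**Figure D4:**
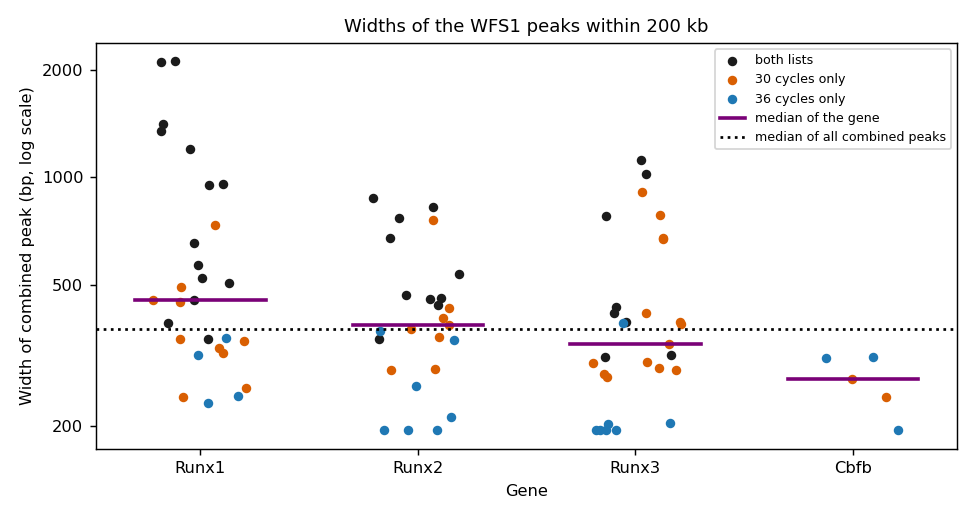
Width of each combined peak (bp, log scale) by gene, 1 point per peak coloured by list, with the median of the gene as a bar and that of all combined peaks (376 bp) as a dotted line. Runx1 has 5 peaks of at least 1200 bp, all found in both lists. Those of 2112 and 1201 bp are that wide only after joining. The Cbfb peaks all lie under the dotted line.

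RUNX cores were found at the peaks of all 4 genes, and in the central 200 bp the share was highest at Runx3. In the central 200 bp, 14 of 29 Runx3 peaks held one (48.3%, 31.4 to 65.6%), 7 of 25 Runx2 peaks (28.0%, 14.3 to 47.6%), 6 of 28 Runx1 peaks (21.4%, 10.2 to 39.5%) and 1 of 5 Cbfb peaks, beside 28.4% of all combined peaks. The Runx3 interval alone leaves out that share, and no interval was adjusted for the number of genes and motifs looked at. For TGTGGT alone Runx3 had 37.9% (22.7 to 56.0%) beside 24.7%, and this interval includes the share of all peaks. Counted over whole peaks, Runx3 had 58.6% (40.7 to 74.5%), Runx1 had 57.1% (39.1 to 73.5%) and Runx2 had 36.0% (20.2 to 55.5%), beside 46.6% of all. Runx1 and Runx3 were then about level, and the 3 intervals include the share of all peaks. Of the 14 Runx3 peaks with a core, 10 lay upstream of the gene, 2 inside and 2 downstream. Some of these 14 were nearest to a start site of Rsrp1, Syf2 or Clic4 and not of Runx3. Over the 4 genes, 28 of 87 peaks held a core (32.2%, 23.3 to 42.6%).

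AP-1 sites, the target of FOS and JUN dimers, were found in the central 200 bp of 7 Runx1, 8 Runx2, 6 Runx3 and 1 Cbfb peaks, 25.3% of the 87 (17.3 to 35.3%) beside 17.9% of all combined peaks. CAGCTG, an E-box that MYOD1 and other basic helix-loop-helix factors bind, was found in 6, 6, 9 and 0, or 24.1% (16.4 to 34.1%) beside 18%. Both intervals include the share of all combined peaks. Counted over whole peaks, the share with an AP-1 site was 42.5% (32.7 to 53.0%), and this interval leaves out the 31.2% of all combined peaks. By gene, 16 of 28 Runx1 peaks held an AP-1 site (57.1%, 39.1 to 73.5%), and wider peaks have more bases in which to hold one. At least 1 of the 3 motifs was in the central 200 bp of 47 peaks (54.0%), beside 50.6% of all, so nearly as many peaks had none of them.

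**Figure D5:**
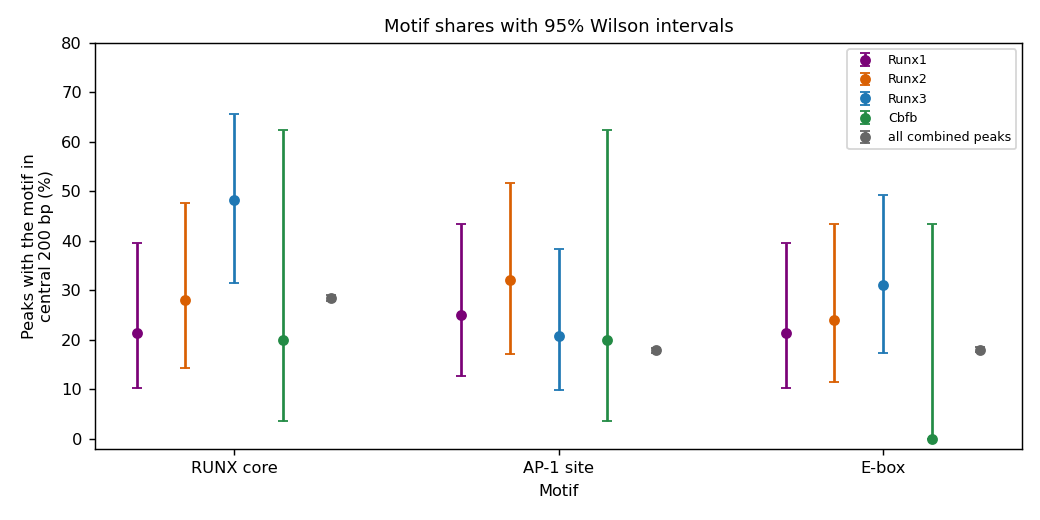
Share of the combined peaks near each gene (%) with a RUNX core, an AP-1 site or the E-box CAGCTG in the central 200 bp, with 95% Wilson intervals, beside all combined peaks in grey. The intervals of single genes are wide and include the share of all combined peaks, except that of the RUNX core at Runx3 with 48.3% against 28.4%. For TGTGGT alone the Runx3 interval includes that share as well, and no interval was adjusted for the number shown.

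Genes that work with the RUNX proteins or are known targets of them were examined from a list of 21 partners and 18 targets. The list was written with earlier results of these data known, so its counts are a description. A peak within 200 kb was found for all 21 partners and for 17 targets, that is 38 of 39 genes beside 83.8% of all protein-coding genes, and Mmp13, a collagenase gene of bone and cartilage, had its nearest peak at 512 kb. Within 50 kb there was a peak for 31, beside 61% of genes. Within 1 kb of a start site there was one for 8 of 21 partners and 2 of 18 targets, beside 15.3%. A start site lay inside a peak for Tle1, a Groucho corepressor, Cdk6, a kinase of the G1 phase, Ep300, a histone acetyltransferase, and Wwtr1, which encodes the YAP1 relative TAZ, and among the targets for Spp1, which encodes osteopontin. Runx1t1, Twist2, Yap1, Aes and Col1a1 had a peak at 0.099, 0.145, 0.443, 0.632 and 0.504 kb from a start site. Tle3, Smad3, Hipk2, Col10a1 and Tle2 had one at 1.122, 2.933, 6.554, 7.393 and 8.69 kb.

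Partners and targets both had a median of 9 peaks within 200 kb, above the 5 of all genes and below the 25 to 29 of the Runx genes. Per Mb of window the medians were 15.5 for partners and 21.6 for targets, beside 10.1 over all genes. The highest among partners was Smad3, a mediator of TGF-beta signals, with 23 peaks, 15 of them inside the gene. The highest among targets was Sp7, the bone transcription factor osterix, with 27, none of them inside. Bglap and Bglap2, the neighbouring osteocalcin genes, had 17 each in windows that overlap, so the genes of the list are not independent of each other.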

How the data were processed

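WFS1 ChIP-seq peaks of wildtype C2C12 cells were analysed from the deposited lists of 2 libraries. Per the study's methods, the authors aligned the reads to GRCm38 by NextGenMap, dropped poorly placed ones by samtools and ran MACS2 on each library by itself. The control used in peak calling is not given in the sources used here. The deposited lists hold coordinates without any score, signal or count, so the depth and the height of peaks are unknown.

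Lists were joined with bedtools merge, and peaks within 200 kb of a gene were taken. Genes came from GENCODE mouse release 21 (Ensembl 96). P1 and P2 were told apart by translating the annotated coding sequences, and distances run from the nearest edge of a peak. Motifs were searched as exact letters on both strands of the GRCm38 reference, within 200 bp at the middle of a peak, and in RefSeq promoters of GRCm38.p6 that run from 250 bases before to 50 after the start. Joining, distances and motif search were tested on simulated data. Both libraries share 1 immunoprecipitation, so no test was run.

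The 4 genes, the partners and targets and the motifs were chosen with earlier results of these data known. Peaks are named where they lie within 5 kb of a start site of the gene, are in both lists or are among the 3 widest of a gene, except for 1 Runx2 peak that is not reported here. Other genes are named where a start site lies within 5 kb of such a peak, or where a partner or target has a peak within 10 kb of one. The pair ACCACANNACCACA, the repeat at Runx1, the peak group at the end of Runx2, the genes nearest to other peaks, and Mmp13, Sp7, Bglap and Bglap2 were chosen after their values were seen. Alternatives were other windows, each list alone, wider joining, wide peaks only, a stricter overlap, every transcript start, whole peaks and TGTGGT only. Gene ends from coding transcripts were added after seeing the data. Versions were python 3.11.15, pandas 2.3.3, scipy 1.17.1, pysam 0.24.0, matplotlib 3.10.9 and bedtools 2.31.1.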

Additional observations from a re-analysis of the deposited data

How the results depend on the processing

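No paired analysis was possible because a single library was made per condition. The 87 peaks became 52 with a window of 50 kb, 56 in the 36-cycle list alone and 44 when narrower peaks than the median were left out. They were 65 with 100 kb, 76 from the start sites, 68 in the 30-cycle list alone, 72 with peaks up to 500 bp apart joined and 87 with the gene ends of coding transcripts. The lists hold no score, so no stricter threshold could be tried. The cut at the median width kept 11191 of all 22292 combined peaks. A fall to about 44 thus follows from the cut itself and does not show how a stricter call would act. With a window of 50 kb, 18 Runx1, 24 Runx2, 8 Runx3 and 2 Cbfb peaks remained, so Runx2 then had the highest count and Runx3 fewer than Runx1. These windows include the genes, which span 224.684, 318.811, 57.339 and 47.316 kb in the same order, so the windows differ in size. The Runx2 count also includes 11 peaks inside the gene but beyond its coding transcripts, which span 210.797 kb. A window of 50 kb from the ends of the coding transcripts was not counted, so the first place of Runx2 rests on the annotated gene end. The nearest peak to a coding start of Cbfb moved from 0.205 to 94.6 kb in the 30-cycle list alone. Over whole peaks, the shares with a RUNX core, an AP-1 site and CAGCTG were 49.4%, 42.5% and 37.9%, beside 46.6%, 31.2% and 32.8% of all combined peaks. With an overlap of at least 50% of each peak, 23 of the 32 shared peaks were still counted in both lists, and 5 of the 10 of Runx2, beside 6 of the 8 of Runx3. Over all combined peaks the share in both lists fell from 35.4% to 24.3% by the same rule. Of 78 alternative values, 55 stayed within the limits set for no change and 23 moved. A turn of direction was not scored. With 1 library per condition the spread between immunoprecipitations is unknown, and the unknown depth limits what the lack of a peak in either list can show.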
